A study of Cicer arietinum with 8 samples.

Results

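Desiccated chickpea root was set against unstressed root by the messenger RNA level of each annotated gene model. The comparison uses 2 of the 8 libraries of the series, 1 from each condition. Both came from seedlings of Cicer arietinum genotype ICC4958 that were 10 days old. The desiccated seedlings were laid on folded tissue paper for 5 h, and the control seedlings stood in water for 5 h. The other 6 libraries are root under salinity (150 mM NaCl) and root in cold water (4 ± 1 °C), and shoot under desiccation, salinity, cold and control. The labels name no further treatment or genotype and do not say how many plants went into a library.

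Loss of water lowers turgor and raises abscisic acid in plant tissues. This hormone binds soluble receptors that inhibit a class of protein phosphatases, which frees protein kinases to switch on transcription factors and their target genes. Products known from desiccated plant tissue include late embryogenesis abundant proteins and dehydrins, which protect other proteins and membranes, enzymes that make compatible solutes such as proline, and aquaporins, the water channels of membranes. The files identify gene models by number and give no names, and 0 of these numbers matched the RefSeq gene table of chickpea. No value here is therefore tied to one of these pathways, and the tissue labels were not checked against marker genes.

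Of 27248 annotated gene models, 16057 reached 1 FPKM (fragments scaled by exon length and by the mapped fragments of the library) in at least 1 of the 2 root libraries and were compared. The other 11191 stayed under 1 FPKM in both. A gene model was counted as higher or lower when log2(FPKM + 1) differed by at least 1, that is 2-fold on this scale. With 1 library on each side there is no replicate check, no test and no p-value, and the counts compare the libraries, not the conditions. In bulk tissue, fewer cells of a type and less RNA per cell cannot be told apart.

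Sequencing depth differed little. Steps of single fragments among values under 0.3 FPKM put the desiccated root library at 1.21 times the depth of the control root library, and the other 6 libraries at 1.24 to 1.30 times. At the low loci where such steps could be read, 1 FPKM stood for a median of 28.5 fragments in desiccated root and 23.6 fragments in control root. The counting error of a value of 1 FPKM is then about 18.7% in desiccated root and 20.6% in control root (1 SD), at loci long enough to show such steps. Shorter genes have fewer fragments per FPKM and a larger error.

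More gene models stood higher than lower in desiccated root. The number at least 2-fold higher was 1548 (9.64% of those compared), and the number at least 2-fold lower was 1086 (6.76%). With a pseudocount of 5 in place of 1, the counts were 888 higher and 601 lower. The median log2 difference was 1.47 among the higher gene models and -1.48 among the lower ones. Most gene models differed little, since 9939 (61.9%) lay within 0.5 log2 of the control. Among loci without an annotated ID, which the comparison leaves out, the shares were larger, with 17.6% higher and 14.3% lower. The median over all 16057 was 0.06, with the middle 50% between -0.30 and 0.42. Scaling by the median ratio of the libraries brought this median to 0.00015 and gave 1407 higher and 1176 lower. Quantile normalization, which gives the libraries the same spread of values, gave 1368 higher and 1191 lower. The lean to higher was smaller under both, at 54.5% and 53.5% of those past 2-fold, against 58.8%.

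**Figure D1:**
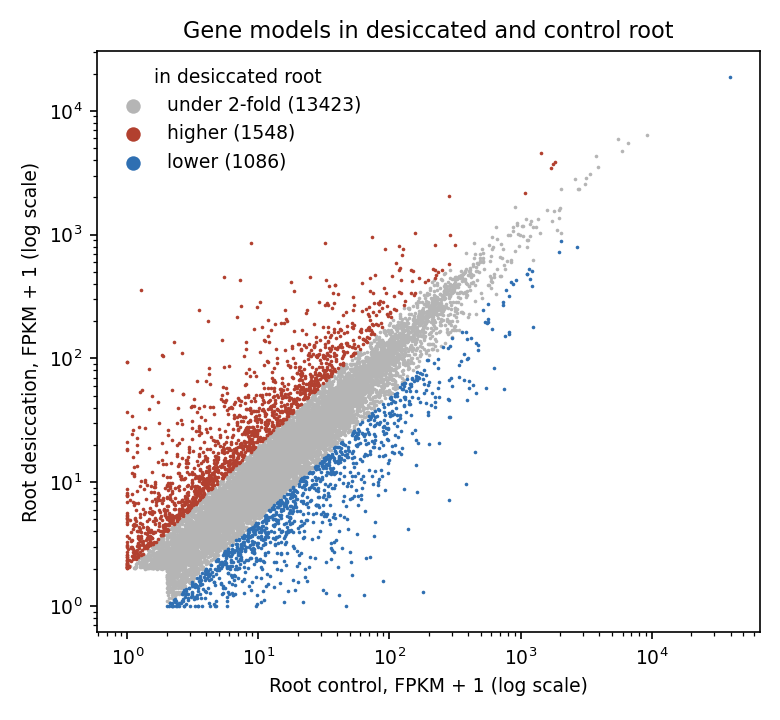
Each point is a gene model, with FPKM + 1 in desiccated root on the vertical axis and in control root on the horizontal axis, both on log scales. The 1548 higher gene models (red) lie above the diagonal band and the 1086 lower ones (blue) below it, at low and at high levels alike.

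The 2-fold line cut through a smooth distribution. Just inside it, with a difference of 1 to 1.1 log2, were 214 higher and 150 lower gene models, and just outside it, at 0.9 to 1 log2, were 221 and 183. Higher gene models outnumbered lower ones at every larger size counted. At 4-fold there were 405 higher (2.52%) and 284 lower (1.77%), at 8-fold 132 higher (0.822%) and 73 lower (0.455%), at 16-fold 51 higher (0.318%) and 21 lower (0.131%), and at 32-fold 18 higher (0.112%) and 8 lower (0.0498%). The higher ones made up 58.8% of those past 2-fold, 58.8% past 4-fold, 64.4% past 8-fold, 70.8% past 16-fold and 69.2% past 32-fold, with few gene models behind the last shares.

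**Figure D2:**
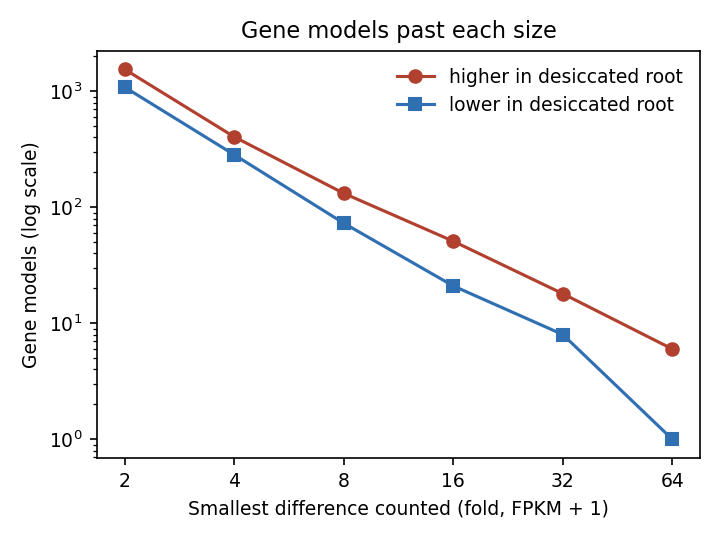
The number of gene models at least as far apart as each fold on the horizontal axis is shown on a log scale, for those higher (circles) and lower (squares) in desiccated root. The higher gene models outnumber the lower ones at every size, from 1548 against 1086 at 2-fold to 18 against 8 at 32-fold.

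A gene model that reached 1 FPKM in 1 library alone could enter the comparison only through the library where it was high. There were 620 such gene models in desiccated root and 451 in control root, while 14986 reached 1 FPKM in both libraries. Among the 14986, 1266 were higher (8.45%) and 901 lower (6.01%). Neither library reached 5 FPKM for 258 of the higher gene models (16.7%) and for 171 of the lower ones (15.7%), against 3207 of all 16057 gene models compared (20%).

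Some gene models crossed the range where transcripts are barely seen. In 87 of them (0.542% of those compared) the level was at least 5 FPKM in desiccated root and under 1 FPKM in control root. Their median in desiccated root was 8.58 FPKM, 8 of them reached 50 FPKM there, and 12 were listed at 0 in control root. In the other direction, 55 gene models (0.343%) were under 1 FPKM in desiccated root and at least 5 FPKM in control root. Their median in control root was 9.68 FPKM, and 2 of them were listed at 0 in desiccated root. A listed 0 can be a failed estimate, so no fold is given against it. The 87 had medians of 3.82 FPKM in salt-stressed root and 6.47 FPKM in cold root, and the 55 had medians of 2.44 and 0.474 FPKM in those libraries.

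The gene model with the largest log2 increase was Ca_09717. It stood at 356 FPKM in desiccated root, against 0.275 FPKM in control root, a log2 difference of 8.13. It reached 1046 FPKM in salt-stressed root and 48.8 FPKM in cold root. In shoot it was at 0.333 FPKM under desiccation, 0.242 FPKM under salinity and 0.0233 FPKM in cold, and it was listed at 0 in the shoot control. Ca_09717 was therefore seen above 1 FPKM in the 3 stressed root libraries alone. It ranked 245th of all gene models in desiccated root and 16768th in control root.

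The largest increase in FPKM was that of Ca_01320. It stood at 4562 FPKM in desiccated root, against 1442 FPKM in control root, a log2 difference of 1.66. It was similarly high in cold root at 4764 FPKM, while salt-stressed root had 1141 FPKM, which is below the control. In shoot it ranged from 180.5 FPKM in the control to 301 FPKM under salinity, with 268 FPKM under desiccation and 204 FPKM in cold. Ca_01320 held rank 6 in desiccated root and rank 29 in control root.

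Among the lower gene models Ca_10167 had the largest log2 difference, -7.13. It stood at 0.3002 FPKM in desiccated root, against 181 FPKM in control root. It was also low in cold root (0.461 FPKM) and salt-stressed root (7.36 FPKM). In shoot it was at 1.27 FPKM under desiccation, 1.42 FPKM under salinity, 5.17 FPKM in cold and 4.41 FPKM in the control, so that desiccated shoot was also lower than its control (log2 difference -1.25).

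The largest loss in FPKM was that of Ca_18235, the most abundant gene model of both root libraries. It stood at 18685 FPKM in desiccated root, against 39384 FPKM in control root, a log2 difference of -1.08. It alone held 2.69% of the FPKM summed over annotated gene models in desiccated root and 5.85% in control root. Salt-stressed root had 8675 FPKM and cold root 12930 FPKM, so the control was the highest of the root libraries. In the shoot libraries it stayed between 0.238 FPKM (control) and 2.07 FPKM (salinity). Quantile normalization, which gives the top gene model of every library the same value, sets the root difference to 0 where a gene model leads both libraries.

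**Figure D3:**
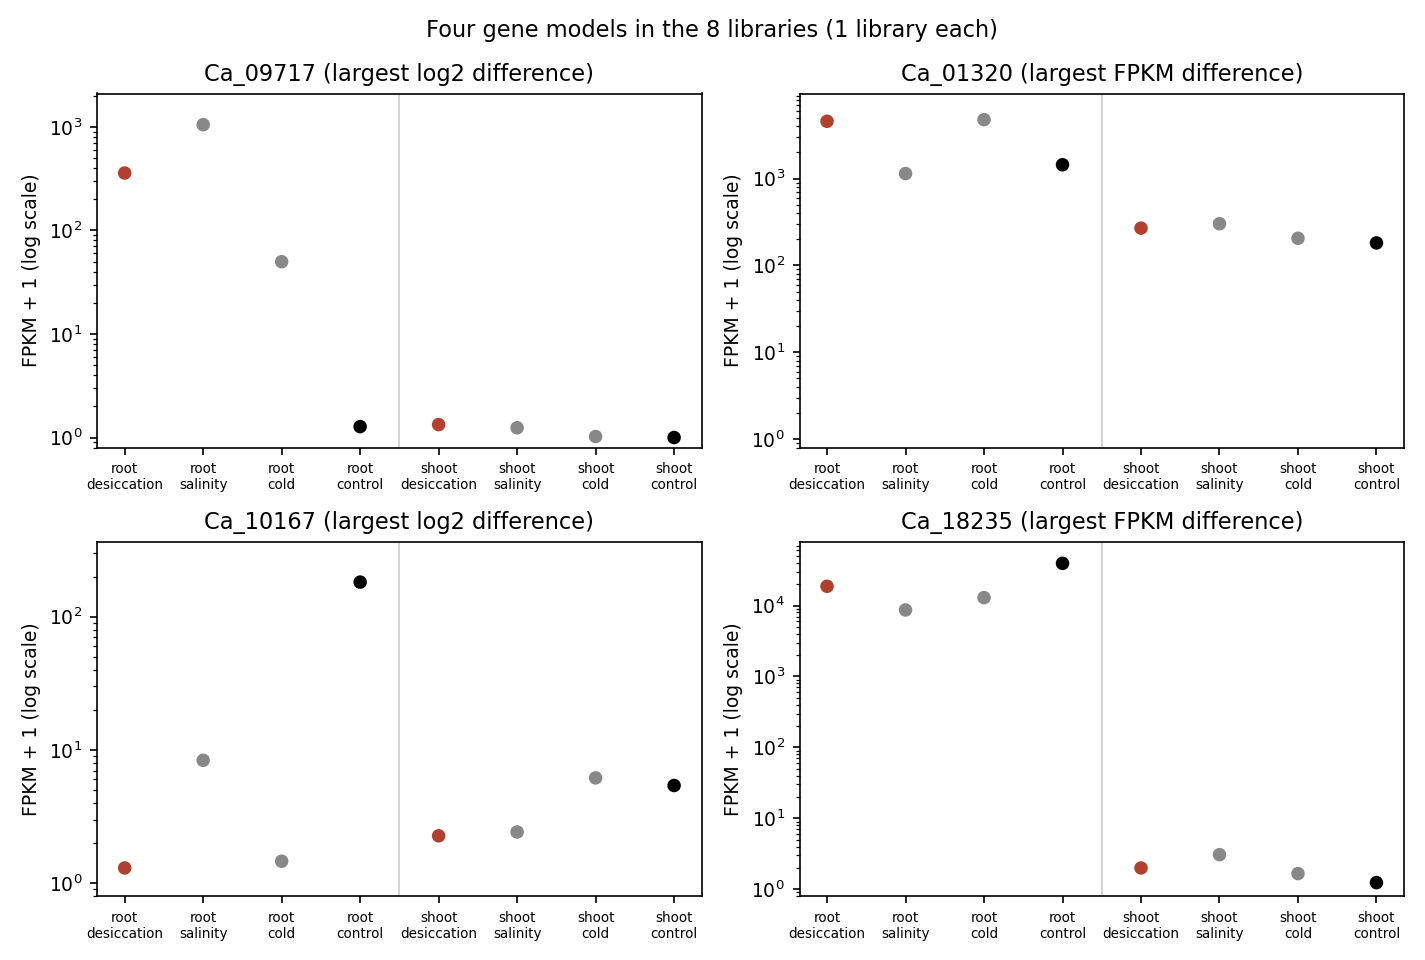
FPKM + 1 on a log scale is shown for Ca_09717, Ca_01320, Ca_10167 and Ca_18235 in the 8 libraries, 1 point a library, with desiccation in red, salinity and cold in grey and controls in black. Ca_09717 is high in the 3 stressed root libraries alone, Ca_01320 in desiccated and cold root, and Ca_10167 and Ca_18235 are highest in control root.

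The most abundant gene models held less of the total in desiccated root, and Ca_18235 made up much of this gap. The 10 most abundant gene models held 8.79% of the summed FPKM of annotated gene models in desiccated root and 12.5% in control root. The 100 most abundant held 23.1% in desiccated root and 27.6% in control root. With Ca_18235 left out of the lists and of the sums, the 10 most abundant held 6.78% in desiccated root and 7.49% in control root, and the 100 most abundant held 21.0% in desiccated root and 23.2% in control root. Both lists of 100 had 68 gene models in common. Of the 32 listed for desiccated root alone, 14 were at least 2-fold higher there. Of the 32 listed for control root alone, 20 were at least 2-fold lower in desiccated root. Over all gene models compared, 9.64% were higher and 6.76% lower. The lists come from the same 2 libraries as the differences, so such a lean is built into them. FPKM is scaled to the mapped fragments of a library, so a very abundant gene model can bear on the values of others. The summed FPKM is not a fixed total, at 695334 in desiccated root and 672970 in control root. The part of Ca_18235 in the other differences was not tested.

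The higher gene models together held 16.1% of the summed FPKM in desiccated root and 4.83% in control root. The lower ones held 6.13% in desiccated root and 17.6% in control root. Ca_18235 was a large part of the lower set, which without it held 3.53% in desiccated root and 12.4% in control root. These sums follow from how the sets were chosen in those libraries. In libraries that played no part in the choice, the higher gene models held 15.3% in salt-stressed root and 17.4% in cold root, and 5.92% in desiccated shoot, 5.55% in salt-stressed shoot, 4.98% in cold shoot and 3.92% in control shoot. The lower gene models held 7.01% in salt-stressed root and 5.61% in cold root, and between 13.7% and 14.9% in the shoot libraries. Without Ca_18235 they held 5.69% in salt-stressed root and 3.71% in cold root, and the shoot shares, which it hardly touches, were then above that of control root.

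By typical level, the stressed root libraries stood above shoot for the higher gene models and below shoot for the lower ones. Control root lay within the shoot range for the higher gene models and above it for the lower ones. The medians of desiccated and control root follow from how the sets were chosen. The distance of the other root libraries from control root depends on that choice too. The higher gene models had a median of 22.2 FPKM in desiccated root, 13.2 FPKM in salt-stressed root and 16.9 FPKM in cold root, against 5.47 FPKM in control root. In shoot their median was 4.95 FPKM under desiccation, 5.56 FPKM under salinity and 6.54 FPKM in cold, against 5.14 FPKM in the control. The lower gene models had a median of 5.02 FPKM in desiccated root, 9.74 FPKM in salt-stressed root and 5.22 FPKM in cold root, against 20.3 FPKM in control root. In shoot their median lay between 10.8 FPKM (cold) and 12.6 FPKM (salinity). The median over all gene models compared was 13.4 FPKM in desiccated root and 12.9 FPKM in control root.

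**Figure D4:**
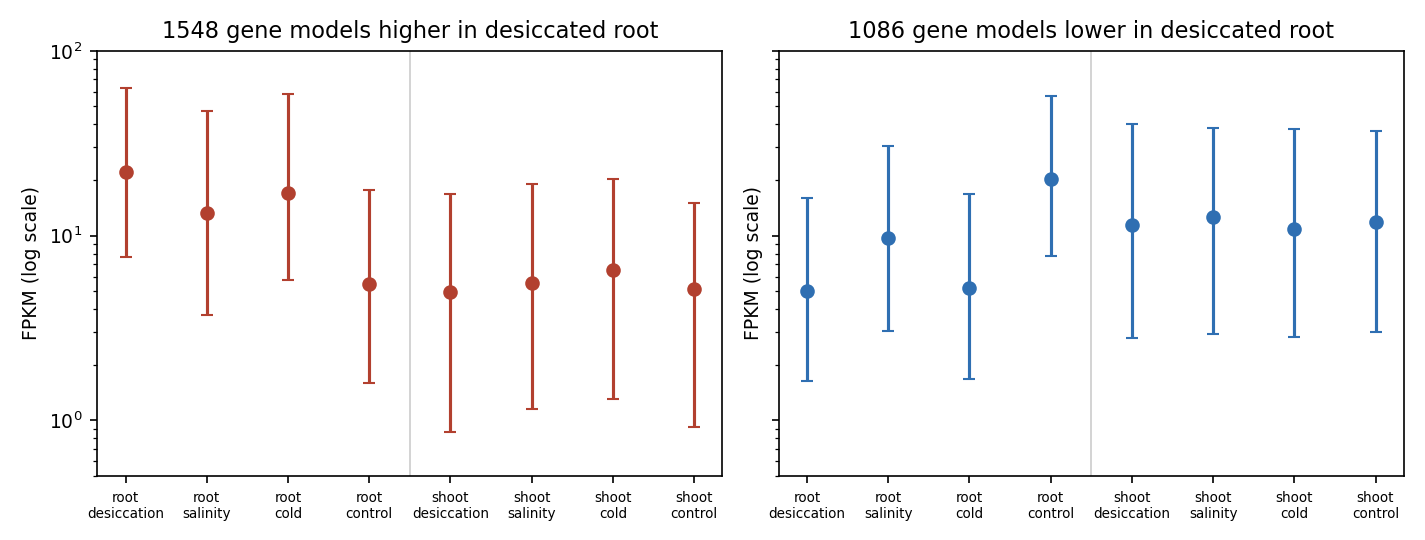
Points give the median FPKM of each set in each library on a log scale, and bars run from the lower to the upper quartile over gene models. The 1548 higher gene models have their lowest root median in the control (5.47 FPKM) and the 1086 lower ones their highest (20.3 FPKM). Control root helped to choose both sets, so its place among the root libraries is not independent of that choice. The shoot medians of each set differ little between libraries.

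The root stresses share the control library, so their differences are given side by side only. Among the gene models higher in desiccated root, the median log2 difference from control root was 1.47 under desiccation, 0.82 under salinity and 1.26 in cold. Among the lower ones it was -1.48 under desiccation, -0.99 under salinity and -1.54 in cold. Over all gene models compared, these medians were 0.06, -0.01 and 0.02. The middle 50% of the higher gene models ran from 0.11 to 1.94 under salinity, a wider spread than 0.86 to 1.90 in cold. Under desiccation it ran from 1.197 to 2.05, where the rule that chose the set admits nothing under 1. The share of gene models past 2-fold in either direction was 16.4% for desiccation, 26.7% for salinity and 16.4% for cold. Past 16-fold it was 0.448% for desiccation, 0.769% for salinity and 0.476% for cold.

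Desiccated shoot gave a comparison that shares no library with the root. Of the 1548 gene models higher in desiccated root, 233 (15.1%) were at least 2-fold higher in desiccated than in control shoot and 216 (14.0%) were at least 2-fold lower. Of the 1086 lower in desiccated root, 140 (12.9%) were higher in desiccated shoot and 133 (12.2%) lower. Over all gene models compared in root, 8.41% were higher and 9.07% lower in desiccated shoot. The gene models that differed in root thus differed more often in shoot, in either direction, and the median shoot difference was 0.00 for the higher set and -0.02 for the lower set. With a pseudocount of 0.1 the shoot counts were 389 higher and 404 lower for the higher set, and 211 higher and 221 lower for the lower set, so which of the shoot directions leads is not settled. These shares are descriptions of single libraries and were not tested.

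The balance of the shoot differences was not the same at every size of root difference. Among the 405 gene models at least 4-fold higher in desiccated root, 83 (20.5%) were higher and 33 (8.15%) lower in desiccated shoot. Among the 132 at least 8-fold higher, 24 (18.2%) were higher and 7 (5.30%) lower. With a pseudocount of 0.1 the 4-fold set had 158 higher and 125 lower in desiccated shoot, and with 5 it had 33 and 8. Of the 284 at least 4-fold lower in desiccated root, 39 (13.7%) were higher and 32 (11.3%) lower in desiccated shoot, and of the 73 at least 8-fold lower, 9 (12.3%) were higher and 9 (12.3%) lower.

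The gene models that differed the same way in both organs had medians of similar size in each. Their gaps between desiccation and control follow from how these sets were chosen in the same libraries. The 233 higher in both had a median of 32.8 FPKM in desiccated root, against 7.36 FPKM in control root, and of 32.8 FPKM in desiccated shoot, against 6.53 FPKM in control shoot. The 133 lower in both had a median of 9.24 FPKM in desiccated root, against 31.6 FPKM in control root, and of 6.43 FPKM in desiccated shoot, against 24.1 FPKM in control shoot.

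Many of the higher gene models were nearly silent in shoot. Under 1 FPKM in all 4 shoot libraries were 287 of the 1548 (18.5%), against 5.54% of all gene models compared (890 of 16057). The share was larger among bigger root differences, at 27.7% of those at least 4-fold higher and 41.2% (21 of 51) of those at least 16-fold higher. Of the lower gene models, 99 of 1086 (9.12%) were under 1 FPKM in all shoot libraries. Where both root libraries had to reach 1 FPKM, the share was 11.8% of the higher gene models (150 of 1266). It was 5.88% of the lower ones, against 3.84% of all 14986. The 4-fold and 16-fold sets were not counted under this condition.

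Organ bias was measured in library pairs outside the comparison. In cold, 55.1% of the higher gene models were at least 2-fold higher in root than in shoot and 7.17% at least 2-fold lower in root. Among the lower gene models 17.9% were higher in root and 38.7% lower in root than in shoot. Over all gene models compared these shares were 19.9% and 14.5%. In the salinity pair, 46.7% of the higher gene models were higher in root than in shoot and 11.2% lower. Of the lower gene models, 27.4% were higher in root and 32.5% lower, against 20.2% and 15.4% over all. The higher gene models also stood above the control in root under cold and salinity, as their medians show, and the part of this in the organ bias was not tested.

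The share counted as higher varied with the level of gene models in the other root libraries. The higher gene models also stood above control root there, with median log2 differences of 0.82 under salinity and 1.26 in cold. Their level is thus not independent of the stresses, and the part of this in the shares was not tested. With levels taken from salt-stressed and cold root, 25.6% of the 117 gene models of at least 500 FPKM and 20.6% of the 1059 between 100 and 500 FPKM were higher in desiccated root. Between 10 and 20 FPKM the share was 7.10% of 3423 gene models. The lower gene models made up 4.41% to 7.54% of each group from 5 FPKM upward. With levels from salt-stressed root alone, 29.4% of the 126 gene models of at least 500 FPKM were higher. At the bottom the direction turned with the library that set the level. Under 1 FPKM in salt-stressed and cold root, 12.9% of 495 gene models were higher and 22.8% lower, whereas under 1 FPKM in salt-stressed root alone, 21.8% of 775 were higher and 14.3% lower. Many of these entered through 1 root library. Where both desiccated and control root had to reach 1 FPKM, the shares were 2.11% higher and 13.7% lower of 95 gene models with levels from salt-stressed and cold root, and 13.8% higher and 8.08% lower of 297 with levels from salt-stressed root alone.

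At high levels the order was the opposite when levels were taken from shoot. Of the 1177 gene models with a mean under 1 FPKM over the 4 shoot libraries, 29.5% were higher and 11.3% lower in desiccated root. Of the 131 with a shoot mean of at least 500 FPKM, 5.34% were higher and 26.7% lower. Where gene models had to reach 1 FPKM in both root libraries, the shares were 24.4% higher and 9.73% lower for those under 1 FPKM in shoot (771 gene models), and 3.97% higher and 26.2% lower for those of at least 500 FPKM in shoot (126 gene models). With a pseudocount of 5, 14.4% of those under 1 FPKM in shoot were higher and 16.8% of those of at least 500 FPKM in shoot were lower. No shoot library entered the root comparison. Gene models that shoot barely expressed were thus more often higher than lower in desiccated root, and those that shoot expressed most were more often lower than higher.

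**Figure D5:**
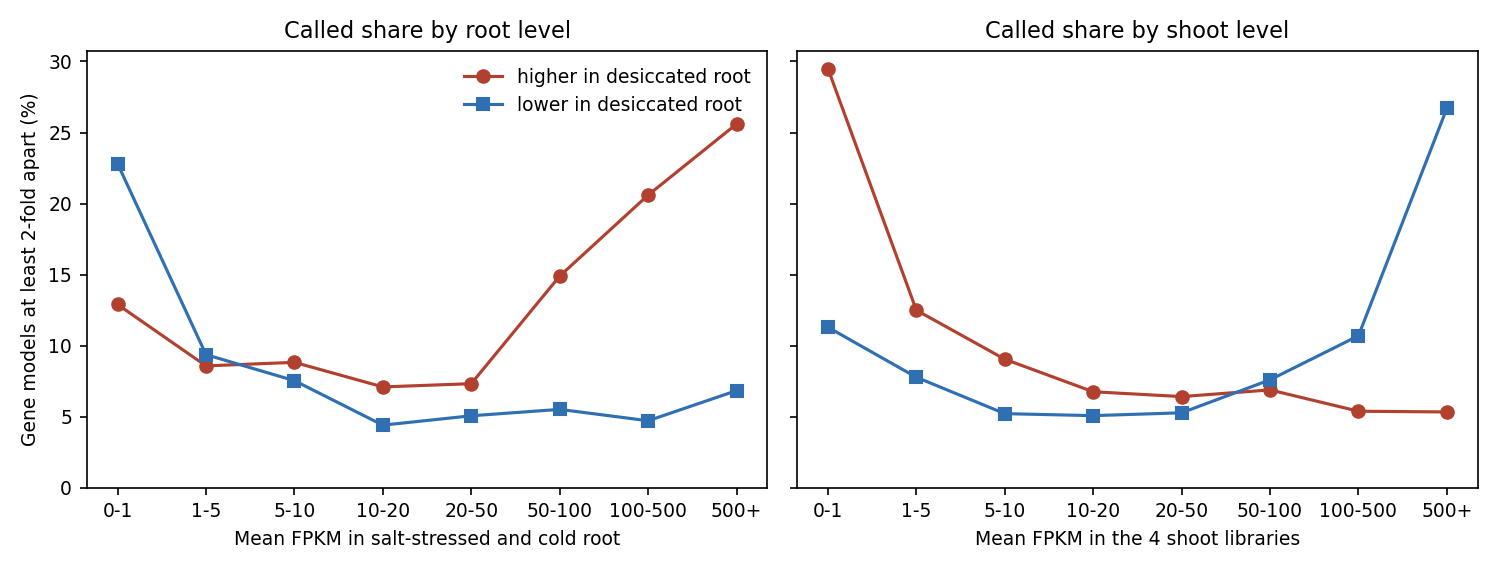
The percent of gene models at least 2-fold higher (circles) or lower (squares) in desiccated root is plotted by mean FPKM in salt-stressed and cold root (left) or in the 4 shoot libraries (right). The higher share climbs to 25.6% at the top root levels and is 29.5% at the bottom shoot level. The lower share reaches 26.7% at the top shoot level. Salt-stressed and cold root, which set the left levels, also stood above control root in the higher gene models.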

How the data were processed

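Messenger RNA of 4 root and 4 shoot samples was sequenced, 1 library each. The deposited values are FPKM. The series' design text says that the authors cleaned reads with NGS QC Toolkit, aligned them with TopHat, quantified genes with Cufflinks and compared samples with Cuffdiff. Tool versions, genome build and annotation release: not given in the sources used here. Because FPKM is scaled to gene length and library total, abundant transcripts lower other values, and single estimates can fail and be listed at 0.

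Groups came from sample titles. Of 34193 loci, 6945 without an annotated ID were left out, and 448 annotated loci carry several IDs, so reads could be merged there. Differences are log2(FPKM + 1), desiccation minus control, counted from 1 upward where either library reached 1 FPKM. Relative depth is the most frequent ratio of values under 0.3 FPKM; at 292 of 421 loci low in all libraries (69.4%), depth-scaled values were whole multiples of the smallest within 5%. Whole reads were not recovered at other loci, so no count test was run. Work was done in Python 3.11.15 (pandas 2.3.3, numpy 2.4.6, matplotlib 3.10.9, scipy 1.17.1), and the counting and depth steps were tested on simulated data. The comparison and its rules were chosen with earlier results of these data known. The gene models named are, in each direction, the one with the largest log2 difference and the one with the largest FPKM difference, among those past 2-fold on a locus of their own and above 0 in both libraries. Planned pathway lists were not run because no ID is paired with a name. Alternatives changed the pseudocount, minimum, threshold, scaling and loci counted.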

Additional observations from a re-analysis of the deposited data

Results flagged for a closer look

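Desiccation went with opposite differences in root and shoot at part of the gene models. There were 216 gene models higher by 2-fold or more in desiccated root and lower by 2-fold or more in desiccated shoot, each against its own control. Their median was 17.5 FPKM in desiccated root, against 4.93 FPKM in control root, and 4.58 FPKM in desiccated shoot, against 15.5 FPKM in control shoot. Another 140 gene models were lower in desiccated root and higher in desiccated shoot, with medians of 9.48 FPKM in desiccated root, against 37.1 FPKM in control root, and 33.2 FPKM in desiccated shoot, against 6.73 FPKM in control shoot. The 216 are 14% of the gene models higher in desiccated root, and the 140 are 12.9% of the lower ones. Over all gene models compared in root, 9.07% were lower and 8.41% higher in desiccated shoot. Differences in the same direction were about as many, with 233 gene models higher and 133 lower in both organs. That balance depended on the settings. At 4-fold in both organs, 40 of the root-higher gene models went the same way in shoot and 6 the opposite way. Of the root-lower ones, 10 went the same way and 7 the opposite way. With a pseudocount of 5 these numbers were 125 and 58 for the higher set, and 51 and 63 for the lower set. The medians of the 216 and of the 140 follow from how these sets were chosen. With 1 library a condition, the difference between the organs was not tested.

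Loci without an annotated gene ID were outside the comparison. Of 5365 such loci that reached 1 FPKM in either root library, 945 (17.6%) were higher and 765 (14.3%) lower in desiccated root by 2-fold or more, against 9.64% and 6.76% of annotated gene models.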

How the results depend on the processing

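All of the counts rest on 1 library a condition. A pseudocount of 5 gave 888 higher and 601 lower gene models, and a 4-fold threshold 405 and 284. Both kept more higher than lower gene models, as did every alternative run (52.2% to 59.6% higher). That share was lowest when FPKM was rescaled without the 10 most abundant gene models of each library (1550 higher, 1420 lower, median log2 difference -0.03). This rescaling also raised the values, so that 16631 gene models passed the minimum in place of 16057 and the pseudocount weighed less. The part of this in its counts was not tested. Of the gene models higher in desiccated root, those higher and lower in desiccated shoot numbered 389 and 404 with a pseudocount of 0.1, so that the order turned, 125 and 58 with a pseudocount of 5, and 40 and 6 at 4-fold. Of those lower in root, the numbers were 211 and 221 with a pseudocount of 0.1 (the order turned here too), 63 and 51 with 5, and 7 and 10 at 4-fold. The rescaling without the 10 most abundant, which also raised the values, turned both orders. It gave 235 and 260 for the higher set and 172 and 211 for the lower set. Quantile normalization turned the second order (152 and 157). Of those at least 4-fold higher in root, 158 and 125 were higher and lower in desiccated shoot with a pseudocount of 0.1, and 33 and 8 with 5. The share of higher gene models biased to root in cold was 64.9% with a pseudocount of 5, 61.2% with a minimum of 5 FPKM, 58.5% with 1 FPKM in both libraries and 58.0% at 4-fold. The share of lower gene models biased to shoot in cold was 44.6% with a pseudocount of 0.1 and 31.4% with 5. The share of higher gene models under 1 FPKM in all shoot libraries was 15.7% with a pseudocount of 5, 14.5% with a minimum of 5 FPKM, 11.8% with 1 FPKM in both and 27.7% at 4-fold. Among gene models under 1 FPKM in shoot, the share higher in desiccated root was 39.2% with a pseudocount of 0.1, 14.4% with 5, 39.2% with a minimum of 5 FPKM, 24.4% with 1 FPKM in both, 11.1% at 4-fold and 3.02% with no minimum, which adds gene models silent in root. Among those of at least 500 FPKM in shoot, the share lower in desiccated root was 16.8% with a pseudocount of 5 and 5.34% at 4-fold. These shoot results, and levels from the shoot libraries, were chosen after seeing the data. With levels from the shoot libraries, 5.34% of gene models of at least 500 FPKM were higher. Ca_18235 had a difference of 0 under quantile normalization, by construction. The causes of the other shifts were not tested. Crossings of the detection limit were not counted under the minimum of 1 FPKM in both libraries, which leaves none. No paired analysis was possible because each condition has 1 library and the titles carry no replicate number.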

Other observations

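Gene models with consecutive ID numbers appear to lie next to each other, since 455 of 475 steps between IDs joined on 1 locus were steps of 1. Of 1161 gene models higher in desiccated root whose next number was also compared, 128 (11.0%) had a next gene model that was higher too, against 9.32% over all 11687 such pairs. For the lower gene models the number was 80 of 761 (10.5%), against 6.79%. Runs of 3 or more consecutive numbers were found 11 times among the higher gene models, the longest of 4. Among the lower ones they were found 10 times, the longest of 3. No background number of runs was computed, so these are not read as clusters.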
